A study of Homo sapiens with 2 samples.

Results

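The genes that license replication origins and build the replication fork were examined in Molm13 cells, a human acute myeloid leukemia (AML) line that carries the KMT2A::MLLT3 fusion. The 50 genes were chosen by name, as subunits of known replication complexes, from the 50868 genes of the deposited table, and each of them was found once. The cells had been transduced either with an empty vector (Vector, 1 library) or with UNC5B, a netrin receptor (OE-UNC5B, 1 library). According to the methods, UNC5B was delivered by a lentivirus with the CMV promoter, an mCherry marker and puromycin resistance, and infected cells were screened with puromycin. The study asked whether adhesion and proliferation genes respond to UNC5B.

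Before S phase, the origin recognition complex (ORC) marks origins, and CDC6 and CDT1 load the MCM2-7 helicase onto them as an inactive ring. In S phase the kinase pair CDC7 and DBF4, together with cyclin-dependent kinases, brings CDC45 and GINS to the ring, which then unwinds DNA. DNA polymerase alpha-primase starts each strand, and polymerases epsilon and delta extend the leading and lagging strands with the PCNA clamp. FEN1 and LIG1 join the Okazaki fragments. Many of these genes are E2F targets whose mRNA increases at the G1/S boundary, so their levels can follow the share of cycling cells in a bulk sample.

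Levels are given as CPM, read counts relative to a library size of 1000000 after TMM scaling. Counted reads numbered 13715566 in Vector against 15637137 in OE-UNC5B, and the comparison took in the 15384 genes whose reads over both libraries reached 10. UNC5B itself had 0 reads in both libraries, which allows a level of up to 3 reads, or 0.222 CPM in Vector and 0.189 CPM in the other library. The overexpression is therefore not visible here, and the direction of every difference rests on the labels, so the phrase "the library labelled OE-UNC5B" is used throughout. All 10 AML and myeloid markers had reads in both libraries, but their summed level went from 5266 to 2943 CPM, mainly through the granule gene LYZ (51742 reads against 23700) and MPO (3363 reads against 1553). The direction was mixed within the list. Over its 10 genes 5 were lower and 5 higher, with a median log2 fold change of 0.05, and MEIS1 (0.90), PTPRC (0.73), HOXA9 (0.47), FLT3 (0.42) and CD33 (0.14) were the higher ones. Of 6 markers each, 4 endothelial (KDR, CDH5, TEK, CLDN5), 5 epithelial or HEK293 (KRT8, EPCAM, CDH1, PAX2, LIN28B) and 4 fibroblast markers (DCN, POSTN, PDGFRA, FBLN1) had 0 reads in both libraries. The summed endothelial markers were at 121 and 92.7 CPM, nearly all from PECAM1 (1626 and 1471 reads), which myeloid cells also express. The fibroblast sum was 23 and 9 reads, 21 and 9 of them from COL1A1, and the epithelial sum 5 and 2 reads from KRT18. The lymphoid markers were low, with 72 and 114 reads over 5 genes. In bulk RNA, fewer cells in S phase and less RNA per cell cannot be told apart. Because each group had 1 library, differences could not be checked against replicates and the conditions could not be tested. The 95% intervals given in brackets come from the reads and cover counting error only.

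Changes are given as the log2 fold change of the library labelled OE-UNC5B over Vector with 0.5 reads added. All 50 replication genes passed the minimum of 10 reads, and the lowest, DBF4, had 480 reads over both libraries. Summed over the 50 genes, the level was 7693 CPM in Vector and 6111 CPM in the library labelled OE-UNC5B, a log2 ratio of -0.33 (-0.34 to -0.32). The median log2 fold change was -0.23, against -0.01 for all genes compared. The direction was shared more than the size was large. Of the 50 genes, 41 were lower, where 50.5% of all genes compared were lower (50.9% of the 8284 genes with at least 480 reads, the count of DBF4, which are measured about as precisely). The interval lay below 0 for 32 genes (26.2% of all genes), above 0 for 3 genes (25.2%) and on both sides of 0 for 15 genes (48.6%). Among the 8284 better measured genes the shares were 35.7% below 0 and 34.2% above 0.

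Few replication genes differed by a large factor. A decrease of at least 1.5-fold was seen in 6 of the 50 genes, or 12%, beside 12.5% of all genes compared and 6.89% of the 8284 better measured genes. The first of these shares is close to that of the replication genes, so the number of 1.5-fold decreases does not set them apart from all genes compared. The second share, from genes measured about as precisely, is below 12%, and this difference was not tested. No replication gene was 1.5-fold higher, where 13% of all genes and 7.75% of the better measured genes were. At 2-fold, 1 gene was lower (4.72% of all genes) and 0 were higher (5.27%). The 6 genes were FEN1, GINS1, PCNA, MCM4, GINS4 and POLA2, and GINS2 (1.49-fold) and RFC2 (1.48-fold) lay just short of the threshold. POLA2 passed it under TMM scaling but was at -0.57 with library totals, under 1.5-fold, and with FPKM and 1 added GINS4 (-0.57) and POLA2 (-0.50) were both under it.

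**Figure D1:**
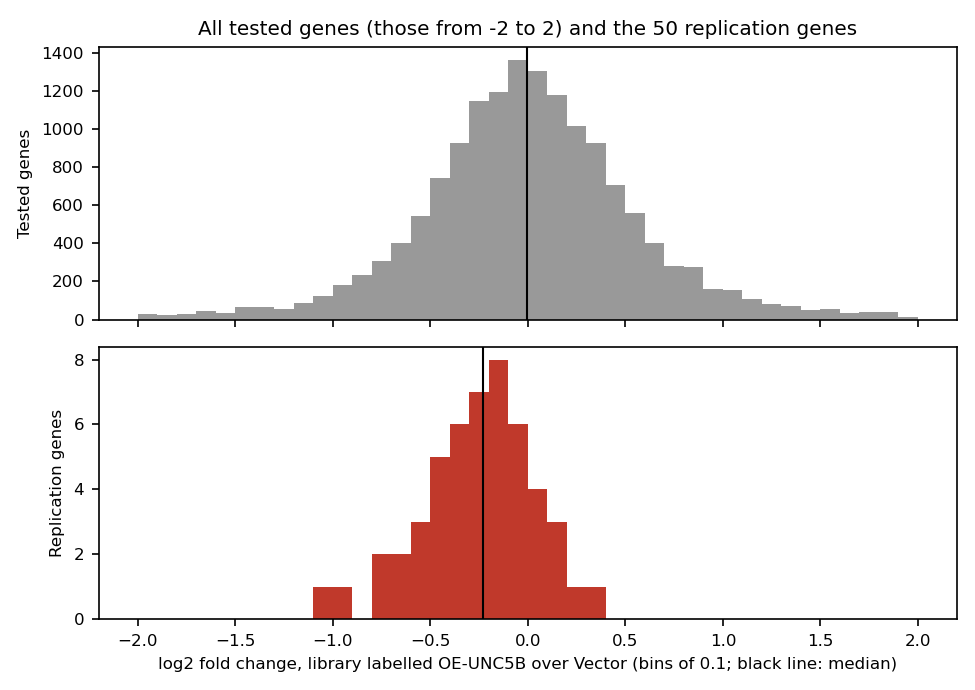
Number of genes (vertical axes) by log2 fold change of the library labelled OE-UNC5B over Vector (horizontal axis, bins of 0.1), for all genes compared between -2 and 2 (top) and for the 50 replication genes (bottom), with black lines at the medians of -0.01 and -0.23. The replication genes form a narrow group between -1.04 and 0.32 that is displaced to the lower side.

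**Figure D2:**
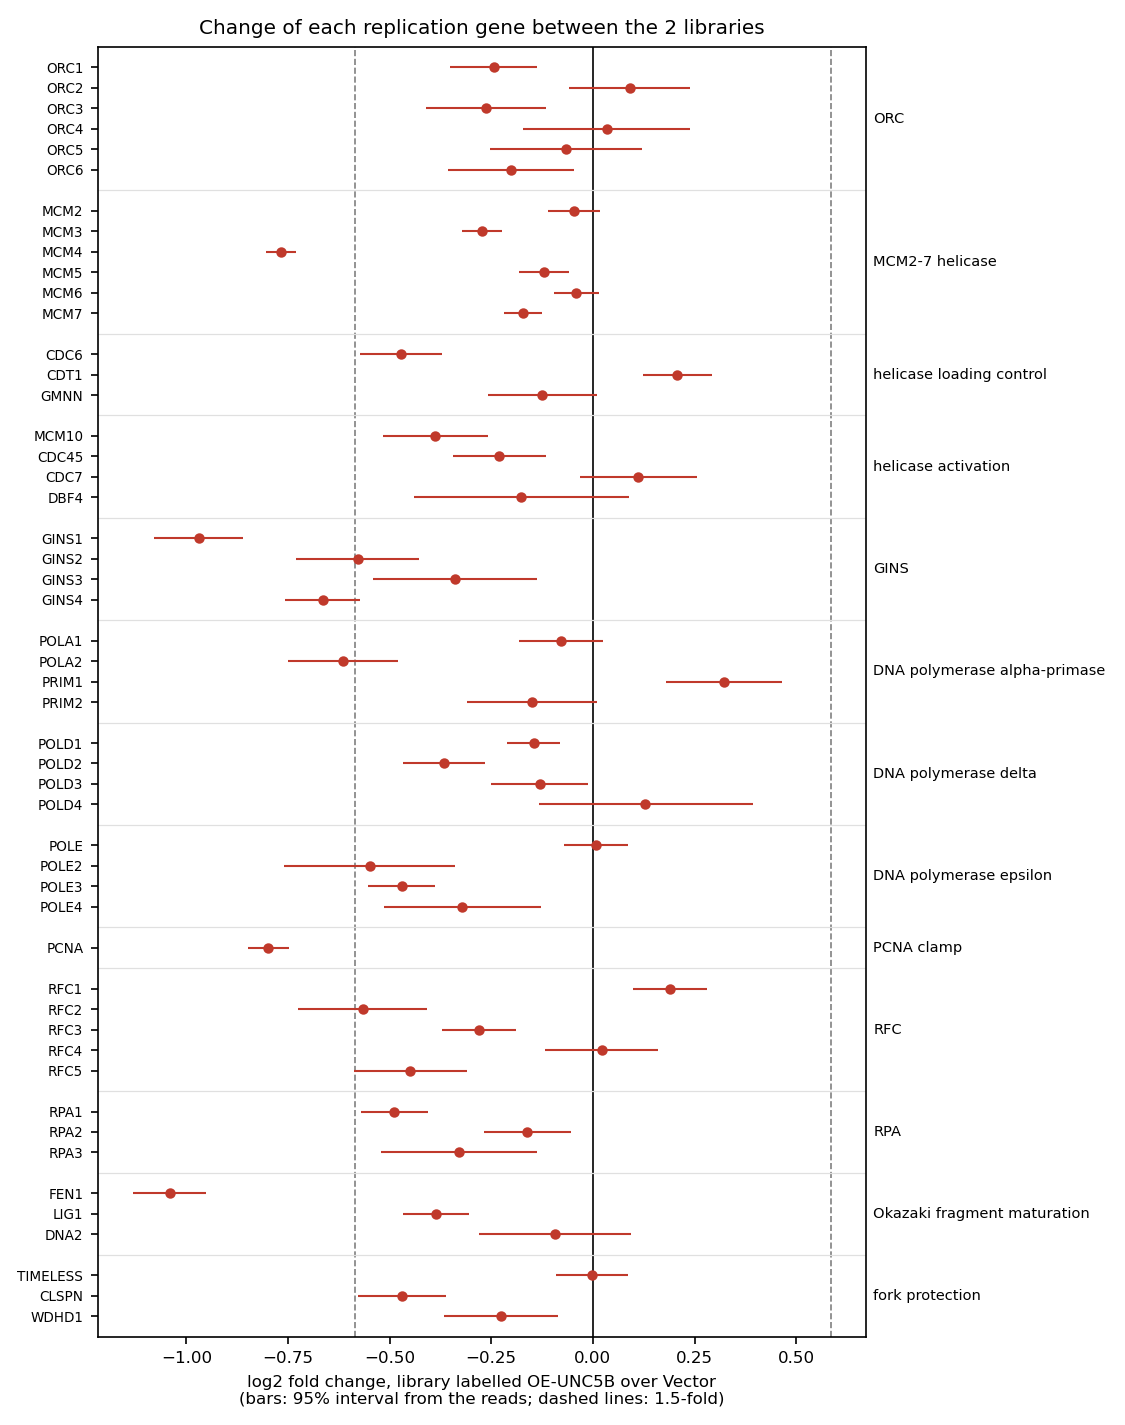
Log2 fold change of each replication gene (points) with its 95% interval from the reads (bars), grouped by complex; dashed lines mark 1.5-fold. FEN1 and GINS1 lie farthest to the left at -1.04 and -0.97, and PRIM1 farthest to the right at 0.32.

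The origin recognition complex changed little. ORC1, its largest subunit and the one that cycles with G1, was at 108 CPM in Vector and 90.9 CPM in the library labelled OE-UNC5B (log2 fold change -0.24, -0.35 to -0.14). ORC3 (55.9 and 46.6 CPM, -0.26) and ORC6 (50.4 and 43.9 CPM, -0.20) were lower by a similar amount. The intervals of ORC2 (0.09), ORC4 (0.03) and ORC5 (-0.07) held 0. As a complex, ORC had a median of -0.13, and its summed level was 323 and 293 CPM.

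The MCM2-7 helicase was lower mainly through MCM4. All 6 subunits had negative values, of which MCM2 and MCM6 turned slightly positive with library totals or FPKM, and MCM2 also with the length and GC trend subtracted. MCM4 (chromosome 8 of GRCh38, positions 47960185 to 47978160) had the highest read count of the replication genes, with 14620 reads in Vector against 10126. That is 1084 CPM in Vector and 637 CPM in the library labelled OE-UNC5B, a log2 fold change of -0.77 (-0.80 to -0.73). The other subunits assemble with MCM4 in equal number, and their mRNAs differed less. MCM3 was at 513 and 424 CPM (-0.27), MCM7 at 534 and 474 CPM (-0.17) and MCM5 at 303 and 279 CPM (-0.12). MCM2 (-0.05) and MCM6 (-0.04) had intervals that held 0. The summed MCM2-7 level had a log2 ratio of -0.34 (-0.36 to -0.32), or -0.15 (-0.17 to -0.12) without MCM4, a calculation chosen after seeing the data.

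The factors that control helicase loading moved apart. CDC6, the ATPase that recruits the helicase to ORC, was at 128 CPM in Vector and 92.3 CPM in the library labelled OE-UNC5B (-0.47, -0.57 to -0.37). CDT1, its loading partner, was higher, at 144 and 166 CPM (0.21, 0.12 to 0.29). Geminin (GMNN), the inhibitor of CDT1, was at 65.2 and 59.8 CPM (-0.12, -0.26 to 0.01). CDT1 was thus 1 of only 3 replication genes with an interval above 0, while the value of its inhibitor was slightly below 0. The ratio of CDT1 to GMNN in FPKM, the deposited level per gene length and counted reads, was 2.36 in Vector and 2.97 in the other library.

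Among the factors that activate the helicase, GINS was lower in all of its subunits. GINS1 (chromosome 20, positions 25407727 to 25452628) was covered by 1793 reads in Vector against 1078, or 133 and 67.8 CPM (-0.97, -1.08 to -0.86). GINS4 (chromosome 8, positions 41529206 to 41545046) had 2210 and 1642 reads, or 164 and 103 CPM (-0.66, -0.76 to -0.57). GINS2 was at 60.3 and 40.4 CPM (-0.58) and GINS3 at 31.2 and 24.7 CPM (-0.34, -0.54 to -0.14). All 4 intervals lay below 0, and the complex had the lowest median of those with 3 or more subunits, at -0.62. The partners of GINS were nearer to level than the GINS median, although MCM10 was slightly lower than GINS3. MCM10, which helps the helicase to start, was at 77.4 and 59.2 CPM (-0.39) and CDC45, the other helicase cofactor, at 91.8 and 78.3 CPM (-0.23). CDC7, the kinase, was at 51.8 and 56.0 CPM (0.11, -0.03 to 0.26), and DBF4, its activating subunit, at 17.4 and 15.4 CPM (-0.18, -0.44 to 0.09). The interval of neither kinase subunit excluded 0. DBF4 is also uncertain because its pseudogene DBF4P1 was counted with 62 and 64 reads.

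The 3 replicative polymerases were uneven within each enzyme. In polymerase alpha-primase, the accessory subunit POLA2 (chromosome 11, positions 65261762 to 65305589) was at 77.2 and 50.4 CPM (-0.61, -0.75 to -0.48), while the catalytic subunit POLA1 was at 106 and 101 CPM (-0.08, -0.18 to 0.03). PRIM1, the catalytic primase subunit, had the highest value of all 50 genes, with 681 and 1003 reads, or 50.5 and 63.1 CPM (0.32, 0.18 to 0.46). Its partner PRIM2 was at 46.2 and 41.7 CPM (-0.15). The value of PRIM1 is uncertain because 139 of its 3309 exonic bases are shared with NACA on the same strand, and NACA had 3339 and 6759 reads.

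In polymerase epsilon, the catalytic subunit POLE was level at 177 and 178 CPM (0.01, -0.07 to 0.09), and its 3 smaller subunits were lower. POLE2 was at 31.2 and 21.3 CPM (-0.55), POLE3, a histone-fold subunit, at 192 and 139 CPM (-0.47), and POLE4 at 33.7 and 27.0 CPM (-0.32). Polymerase delta varied less, from -0.37 for POLD2 (123 and 95.1 CPM) to 0.13 for POLD4 (15.9 and 17.4 CPM, -0.13 to 0.39), with POLD1, the catalytic subunit, at -0.15 and POLD3 at -0.13. POLD4 is uncertain. It shares 650 of its 3054 exonic bases with AP003419.1 on that strand, which had 41 and 0 reads, and with these reads added its log2 fold change was -0.12 (-0.37 to 0.13). The lowest subunit of each of the 3 enzymes was an accessory one (POLA2, POLD2 and POLE2).

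**Figure D3:**
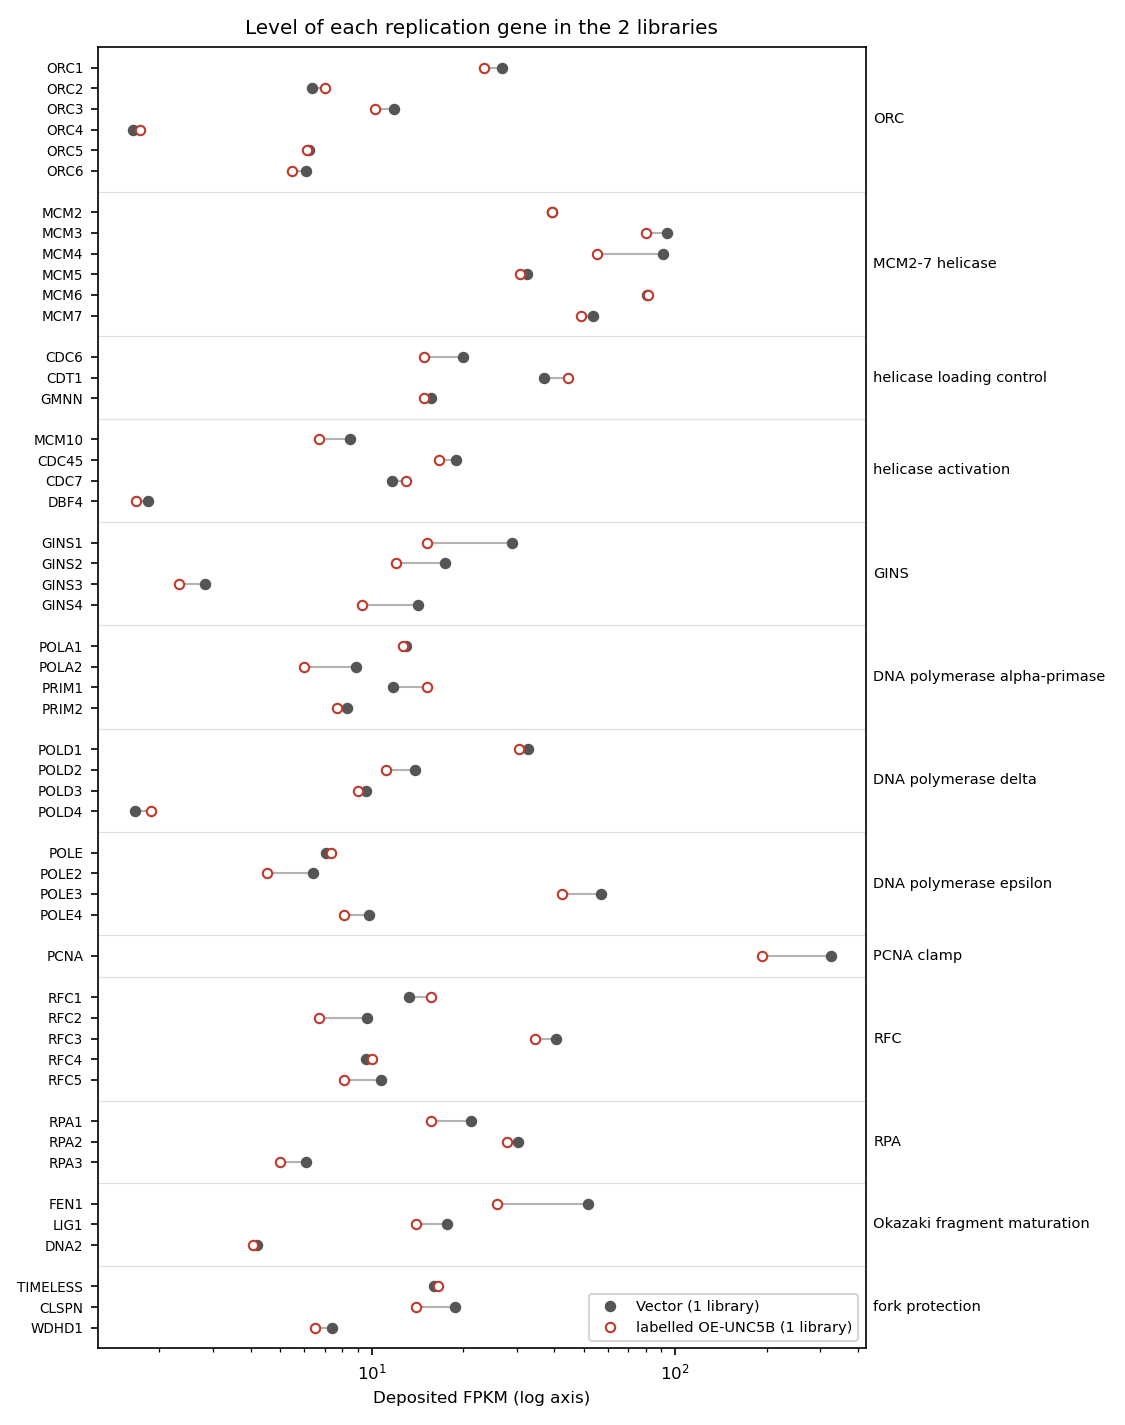
Deposited FPKM of each replication gene (horizontal log axis) in Vector (filled points) and in the library labelled OE-UNC5B (open points), grouped by complex. PCNA is highest at 325 and 193 FPKM, and the widest gaps belong to FEN1 and GINS1.

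The sliding clamp and its loader differed in size of change. PCNA (chromosome 20, positions 5114953 to 5126626) was covered by 8057 reads in Vector against 5458, or 597 and 343 CPM (-0.80, -0.85 to -0.75). Per length it was the highest of the 50 genes in both libraries, at 325 and 193 FPKM. The clamp loader RFC had a median of -0.28. RFC1, its large subunit, was higher at 126 and 144 CPM (0.19, 0.10 to 0.28), and RFC4 was level at 57.6 and 58.4 CPM (0.02). RFC2 (54.8 and 37.1 CPM, -0.57), RFC5 (68.0 and 49.8 CPM, -0.45) and RFC3 (145 and 119 CPM, -0.28) were lower. The subunits of RFC thus lay on both sides of 0.

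The single-strand binding complex RPA was lower in each of its 3 subunits, with RPA1 at 192 and 137 CPM (-0.49), RPA3 at 34.5 and 27.4 CPM (-0.33) and RPA2 at 103 and 91.8 CPM (-0.16). FEN1, the flap nuclease that trims Okazaki fragments, had the lowest value of the 50 genes. It lies at positions 61792637 to 61797244 of chromosome 11 and was covered by 2718 reads in Vector against 1556, or 201 and 97.9 CPM, 2.06-fold lower (log2 fold change -1.04, -1.13 to -0.95). This value was under 2-fold when library totals or FPKM were used. FEN1 shares 49 of its 2198 exonic bases with FADS2 on the same strand, which had 2533 and 2317 reads. LIG1, which seals the nick, was at 194 and 148 CPM (-0.39, -0.47 to -0.31), and DNA2, the nuclease for long flaps, at 33.4 and 31.3 CPM (-0.09, -0.28 to 0.09). Of the fork protection genes, CLSPN, which passes the checkpoint signal to CHK1, was lower at 113 and 82.0 CPM (-0.47), WDHD1, which ties polymerase alpha to the helicase, was at 62.5 and 53.4 CPM (-0.23) and TIMELESS was level at 142 and 142 CPM (0.00, -0.09 to 0.09).

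A few abundant genes carried much of the summed difference. Together, MCM4, PCNA and FEN1 made up 50.8% of the decrease in summed CPM, with 28.2% in MCM4 alone. Without MCM4 and PCNA the summed log2 ratio of the other genes was -0.23 (-0.24 to -0.21), equal to the median over all 50. Per length, levels in Vector ran from 1.63 FPKM for ORC4 to 325 FPKM for PCNA. The order of the subunits by FPKM was the same in both libraries in ORC, GINS, RPA and polymerases delta and epsilon. It changed in the helicase, in polymerase alpha-primase, in RFC and in the loading control and fork protection groups. In the helicase, MCM4 went from 91.0 to 55.3 FPKM while MCM6 stayed at 80.8 and 81.1 FPKM. In polymerase alpha-primase, POLA2 became the lowest subunit (8.90 and 6.01 FPKM) and PRIM1 the highest (11.7 and 15.2 FPKM). In RFC, the lowest subunit was RFC4 in Vector (9.60 FPKM) and RFC2 in the library labelled OE-UNC5B (6.72 FPKM).

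A published list of 43 S phase marker genes, used to score the cell cycle in single cells, holds 15 of the 50 genes, and the values of that list were known before from these data. The 15 genes had a median of -0.23 with 14 lower (93.3%), and the other 35 genes had the same median of -0.23 with 27 lower (77.1%). Of all genes compared, 50.5% were lower. Being on the marker list did not separate larger from smaller differences by the median, although the summed log2 ratio was -0.45 on the list and -0.23 off it.

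Promoters were compared because the genes moved mostly in one direction and many replication genes are regulated by E2F. RefSeq promoters (GRCh38.p14) were matched for 43 of the 50 genes, leaving out DNA2, GINS4, MCM4, MCM5, POLD3, RPA2 and RPA3. In the 250 bases before the start, 13 of the 43 held one of the E2F letter runs TTTCGCGC, TTTGGCGC, TTTCCCGC or TTTGCCGC on either strand, or 30.2%, against 2.79% of 27305 promoters and 4.54% of the promoters of genes compared here. The NF-Y letters CCAAT were in 24 of the 43, or 55.8%, against 33.0% of all promoters and 35.5% of those of compared genes. The CHR letters TTTGAA, found in promoters of many mitotic genes, were in 0 of the 43, in 13.6% of all promoters and in 8.44% of those of compared genes. The difference in median between genes with and without the E2F letters depended on the window. The 13 genes were at a median log2 fold change of -0.27 and the other 30 at -0.21. Only exact matches were counted, so genes with a near variant fell among those without the letters. CDC6 and CDC45 are such genes, with TTTGGCGGG in their 250 bases. With the 50 bases after the start included, 19 genes held the letters, or 44.2% against 3.33% of all promoters and 5.51% of those of compared genes, and the medians were -0.32 with and -0.16 without them. Over all compared genes with a promoter, the medians with and without the letters were -0.01 and 0.00 for 250 bases and -0.02 and 0.00 for 300 bases.

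Sequences from 5 promoters are shown 5′ to 3′ along the gene's strand, to set the strongest decrease with an E2F run (PCNA) beside genes with such runs that changed less (MCM3, MCM6 and POLA1). Capitals mark the E2F letters, and in MCM6 each run holds TTTGGCGC and, on the other strand and overlapping it, TTTCGCGC. GINS1, the second lowest gene, had none of the E2F letters in its window, and there capitals mark CCAAT as read from the other strand.
PCNA, chr20:5126634-5126721, minus strand: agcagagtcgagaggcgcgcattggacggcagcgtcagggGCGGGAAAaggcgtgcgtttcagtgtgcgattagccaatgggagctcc
MCM3, chr6:52284882-52284956, minus strand: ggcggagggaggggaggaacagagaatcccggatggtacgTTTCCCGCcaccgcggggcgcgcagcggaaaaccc
MCM6, chr2:135876482-135876635, minus strand: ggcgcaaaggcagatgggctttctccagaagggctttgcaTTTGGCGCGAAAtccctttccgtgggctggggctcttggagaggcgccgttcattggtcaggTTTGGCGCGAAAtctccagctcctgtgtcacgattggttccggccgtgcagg
POLA1, chrX:24693741-24693828, plus strand: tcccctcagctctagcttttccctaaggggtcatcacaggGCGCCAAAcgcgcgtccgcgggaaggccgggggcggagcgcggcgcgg
GINS1, chr20:25407620-25407672, plus strand: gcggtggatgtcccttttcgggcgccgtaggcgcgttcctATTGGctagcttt
The runs began 59 bases before the start in PCNA, 174 in MCM3 and 137 in POLA1. MCM6 held 4 overlapping matches in 2 runs and was level (-0.04), whereas PCNA held 1 match and was at -0.80. Of the other genes with E2F letters that are not shown, POLA2 (-0.61) and GINS2 (-0.58) were also among the larger decreases, CDT1 was higher (0.21) and POLE was level (0.01). FEN1, the lowest of the 50 genes, had no E2F letters in its 250 bases. These matches are letters in a window and not evidence of binding.

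Other genes of the replication pathway were set beside the 50. Over 70 further genes, the median was -0.14, with 45 lower (64.3%, beside 50.5% of all genes). Of the 70, 7 were lower by at least 1.5-fold (10%, beside 12.5%) and 3 higher by that factor (4.29%, beside 13%). The nucleotide supply genes had a median of -0.54 over 9 genes, with 8 lower (88.9%, beside 50.5% of all genes). Thymidine kinase TK1 (1646 and 1105 reads, -0.81) and the ribonucleotide reductase subunit RRM2 (3004 and 2148 reads, -0.72) were the lowest of them. Among the S phase cyclins, CCNE2, which drives entry into S phase, was the only one of the 70 genes that was 2-fold lower, with 1941 and 872 reads (-1.39, -1.51 to -1.27), and CCNE1 had 617 and 408 reads (-0.83). The E2F and pocket protein genes as a group had a median of 0.01 over 13 genes. E2F1 (-0.31) and E2F4 (-0.58) were lower, and RB1 (0.34), RBL2 (0.35) and E2F6 (0.84) were higher. Topoisomerase genes did not share the decrease, with a median of 0.17 over 4 genes, TOP2A at 0.00 and TOP2B at 0.77 (5331 and 10700 reads).

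**Figure D4:**
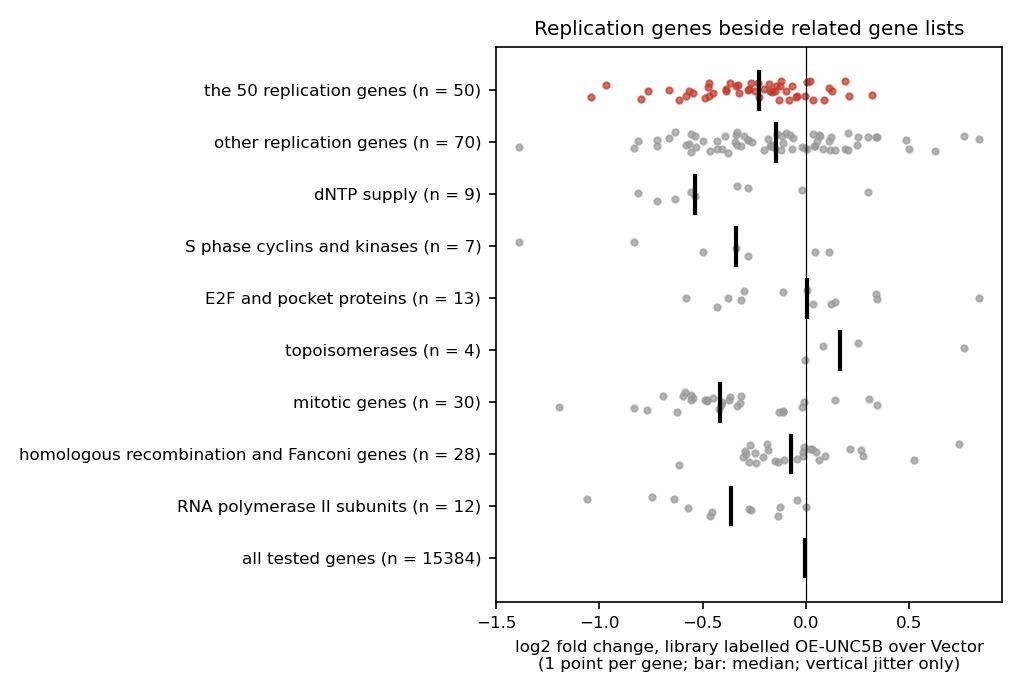
Log2 fold change of single genes (points) and medians (bars) for the 50 replication genes and for lists of related genes, with the median of all genes compared in the last row. The medians of mitotic genes (-0.42) and RNA polymerase II subunits (-0.36) lie below that of the replication genes (-0.23).

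Lower medians were also found outside replication. For 30 mitotic genes the median was -0.42, with 27 lower (50.5% of all genes) and 6 lower by at least 1.5-fold (20%, beside 12.5% of all genes), and UBE2C (574 and 295 reads, -1.20) lowest. The 12 subunits of RNA polymerase II, which transcribes mRNA, had a median of -0.36. Of the 12, 11 were lower (91.7%, beside 50.5% of all genes) and 3 were lower by at least 1.5-fold (25%, beside the same 12.5%). POLR2L was the lowest of these (697 and 393 reads, -1.06). The 28 homologous recombination and Fanconi genes, many of them active at forks, had a median of -0.07. Of the 28, 18 were lower (64.3%, beside 50.5% of all genes) and 10 were higher (beside 49.5% of all genes). The highest of these was BRCA2 at 0.75.

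Transcript length and GC content moved with the change over all genes. The median log2 fold change was -0.14 for genes with transcripts of up to 1235 nt and 0.18 for those of 5145 nt or more, the outer of 5 equal groups by length. For GC content it was 0.13 in the lowest of 5 groups and -0.14 in the highest. Within each length group the replication genes had a lower median than all genes of that length, from -0.23 against -0.10 for 15 genes of 1236 to 2183 nt to -0.04 against 0.18 for the 6 longest. The shortest group held 1 replication gene, POLE4. With the trend on length and GC content subtracted, a step chosen after seeing the data, the median of the 50 genes was -0.23, 43 were lower (51.6% of all genes) and 7, or 14%, were lower by at least 1.5-fold, near the 11.4% of all genes. FEN1 was then at -0.97 and GINS1 at -1.04, so these changed places. At the upper end CDT1 (0.35) passed PRIM1 (0.32), and RFC1 was at 0.06. ORC2 (-0.03), ORC4 (-0.20) and POLE (-0.09) then had negative values, and CLSPN was at -0.68. Whether the trend has a technical source was not tested. The RNA polymerase II subunits were at -0.30, the mitotic genes at -0.43, and the homologous recombination and Fanconi genes at -0.16 with 21 of 28 lower.

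**Figure D5:**
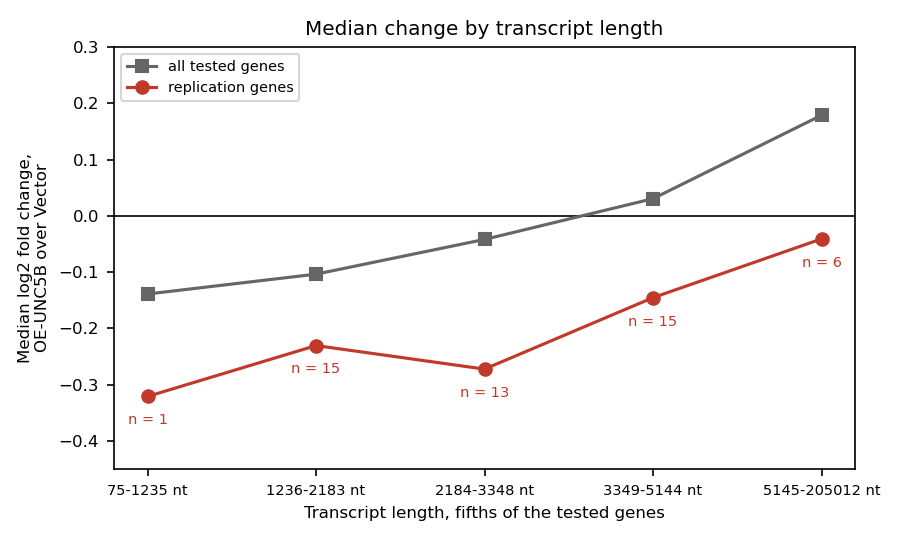
Median log2 fold change (vertical axis) of all genes compared (grey squares) and of the replication genes (red circles, with their number) in 5 groups of transcript length (horizontal axis, nt). The median of all genes rises from -0.14 to 0.18 with length, and that of the replication genes lies below it in each group.

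Reads could be shared with neighbours in 20 of the 50 genes, whose exons overlap exons of another counted gene. The overlap was on the same strand for 5 genes (FEN1, POLD1, POLD3, POLD4 and PRIM1) and on the opposite strand for 16, and the use of strand in counting is not given in the sources used here. Pseudogenes named after the 50 genes held 66 and 69 reads over 15 entries, nearly all of them from DBF4P1.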

How the data were processed

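Bulk RNA-seq of Molm13 cells gave 1 library for Vector and 1 for OE-UNC5B. The VAHTS Universal V6 kit and GRCh38 were used, according to the methods, and the submitters' processing notes name bcl2fastq 2.19, HISAT2 2.0.4 and StringTie 1.3.0. How reads were counted (tool, gene annotation, strand) is not given in the sources used here. The table of the authors holds whole-number counts of reads for each gene. It also holds FPKM values, which the authors scaled to gene length and counted reads. No columns of comparisons were in the table.

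Library sizes were scaled by TMM in edgeR 4.0.16 under R 4.3.3 (factors 0.984 for Vector and 1.02 for OE-UNC5B). Genes reaching 10 reads over both libraries entered the comparison, with 0.5 reads added in proportion to library size. Intervals are 95% Clopper-Pearson intervals of the share of reads (scipy 1.17.1). Neither the quasi-likelihood test of edgeR nor a permutation test could be run on single libraries, and no p-value is given. Fold thresholds were 1.5 and 2. The number of reads limits precision: compared genes had a median of 269.5 and 316 reads.

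The genes and lists were chosen with earlier results of these data known. All 50 genes were described, in full where past 1.5-fold or highest or lowest in a complex, and from other lists those past 2-fold or else the highest and lowest, with a few further genes (E2F1, E2F4, RB1, RBL2, CCNE1, RRM2 and TOP2A) named after their values were seen. Some genes of the further lists are not reported here. ATRIP has 2 identifiers, and the one with more reads was used. Length and GC content came from the canonical transcripts of GENCODE 44 (GRCh38), found for 98.8% of compared genes and all 50 replication genes, and the trend was a robust fit on cubic terms. Exon overlaps used the same annotation. Promoters came from RefSeq (GRCh38.p14). The alternatives tried were size factors from DESeq2 1.42.0, unscaled library totals, the FPKM values with 0.1 or 1 added (for genes reaching 1 FPKM in a library), 2 reads added, a minimum of 50 reads or none, and promoters of all 300 bases. The procedure was tested on simulated counts.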

Additional observations from a re-analysis of the deposited data

How the results depend on the processing

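No paired analysis was possible because each group held a single library, so none could be left out either. The number of replication genes at least 2-fold lower was 1, and it was 0 with library totals, with FPKM and 0.1 added, and with FPKM and 1 added. That gene was FEN1, just past the threshold at -1.04 and just short of it in these settings (-0.99, -0.99 and -0.97). The median of the 50 genes lay between -0.23 and -0.16 under all alternatives, 4 to 7 genes were at least 1.5-fold lower and 38 to 43 were lower at any fold. The median of all genes compared was at most 0.04 above 0 with library totals and FPKM. MCM2, MCM6 and TIMELESS changed sign with library totals and both FPKM settings, TIMELESS also with DESeq2 size factors and at least 50 reads, and POLD4 with the reads of the overlapping gene. Apart from these, only subtracting the trend on length and GC content changed the direction of a replication gene (ORC2, ORC4, POLE and MCM2), and it moved the median of the fork protection genes to -0.43. The share of all genes past 1.5-fold depended on the setting. With TMM scaling and at least 10 reads, 12.5% of all genes were at least 1.5-fold lower, 21.0% without a filter, 8.94% with at least 50 reads, 8.02% with FPKM and 0.1 added and 4.85% with FPKM and 1 added. With all 300 promoter bases, 19 of the 43 genes held E2F letters (3.33% of all promoters), and the medians with and without them were -0.32 and -0.16.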
